A study of Mus musculus with 18 samples.

Results

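A set of 10 genes of the blood vessel wall and its growth signals were followed across mouse adipose tissue: the endothelial genes Pecam1, Cdh5, Kdr, Flt1 and Tek, and the ligand genes Vegfa, Vegfb, Vegfc, Angpt1 and Angpt2. They were taken by symbol, and each had 1 row among the 54347 rows of the count table. All 10 were among the 18728 genes that passed the filter on low counts. The study sequenced polyadenylated RNA of 6 mice, to compare wild type (wt) animals with animals in which Gm15551, a gene for a long noncoding RNA, was disrupted (knockout, ko). Brown fat was taken from the interscapular depot (iBAT), and white fat from the inguinal (iWAT) and the epididymal (eWAT) depots. Each mouse gave all 3 tissues, which made 18 libraries in 6 groups of 3.

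The groups were iBAT wt, iBAT ko, iWAT wt, iWAT ko, eWAT wt and eWAT ko. All mice were 12 weeks old, on a chow diet and of the strain labelled C57BL/6N-{delta}Gm15551. The study names wild type litter mates as controls in its high-fat diet cohort, and the sources used here give no litters for the mice sequenced. The ko allele lacks exon 1 of Gm15551 in every cell and was made by CRISPR/Cas9 in 1 line that was then backcrossed to wild type. The wt libraries held 40 to 316 counts of Gm15551 and the ko libraries 0 to 4.

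Endothelial cells line every blood vessel. VEGF proteins bind the receptor tyrosine kinases encoded by Flt1, Kdr and Flt4 and drive vessel growth and permeability, while angiopoietins act on the receptor encoded by Tek and set how stable a vessel is. Brown fat is known as a densely vascularised tissue, and adipocytes themselves make VEGF-A. In RNA from whole tissue, fewer cells of a type and less RNA per cell cannot be told apart.

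Total counts per library lay between 14997901 and 34389586. Levels are given as CPM, the count relative to a library total scaled by the trimmed mean of M values, and they compare libraries, not genes of unequal length. The tissue labels were borne out by their defining genes: Ucp1, the uncoupling protein of brown fat, ranged from 3422 to 7994 CPM in iBAT and from 0 to 55.3 CPM in white fat, while Wt1, a gene of visceral fat, had 102 to 551 counts in eWAT libraries, 0 to 3 in iWAT and 0 in iBAT. Genes encoded in mitochondria took 22.9% to 27.0% of the counts in iBAT and 3.77% to 9.64% in white fat. The cell composition of 4 libraries stood apart. The summed level of 9 lymph node genes was 1014 CPM in iWAT wt replicate 3 and 383 CPM in iWAT ko replicate 2, that of 8 skeletal muscle genes was 4482 CPM in iWAT ko replicate 1, and that of 6 epididymis genes was 4819 CPM in eWAT ko replicate 3. The highest of these sums among the other libraries of the same tissue were 14.8, 6.17 and 16.6 CPM. Calls of members and counts of lists that changed without these 4 libraries are given both ways. Correlations were taken over all 18 libraries only.

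Promoter sequence was held by RefSeq tables for 6 of the 10 genes. The 250 bases before the start site of the 3 receptor genes and of Vegfa are shown, that is the receptors of the VEGF and angiopoietin ligands among the members and the ligand with the largest increase in iBAT over each white tissue. Letters are written in the direction of transcription on build GRCm38.p6, and capitals mark the core GGAA, or its reverse complement TTCC, that is bound by ETS factors, a family with members known for endothelial expression. Vegfa has a second listed start inside the gene, and Vegfb and Vegfc also have a listed promoter; these 3 windows are not shown.
Kdr, chr5:75978456-75978705, minus strand: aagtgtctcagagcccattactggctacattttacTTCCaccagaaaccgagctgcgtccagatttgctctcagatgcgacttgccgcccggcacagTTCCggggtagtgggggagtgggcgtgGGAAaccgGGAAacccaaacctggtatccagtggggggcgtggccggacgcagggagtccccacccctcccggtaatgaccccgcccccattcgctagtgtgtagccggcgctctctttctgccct
Flt1, chr5:147726012-147726261, minus strand: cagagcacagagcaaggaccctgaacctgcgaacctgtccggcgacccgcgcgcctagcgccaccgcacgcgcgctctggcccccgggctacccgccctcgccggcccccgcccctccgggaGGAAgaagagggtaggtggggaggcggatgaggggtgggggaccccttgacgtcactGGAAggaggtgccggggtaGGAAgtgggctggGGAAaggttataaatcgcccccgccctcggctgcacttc
Tek, chr4:94739039-94739288, plus strand: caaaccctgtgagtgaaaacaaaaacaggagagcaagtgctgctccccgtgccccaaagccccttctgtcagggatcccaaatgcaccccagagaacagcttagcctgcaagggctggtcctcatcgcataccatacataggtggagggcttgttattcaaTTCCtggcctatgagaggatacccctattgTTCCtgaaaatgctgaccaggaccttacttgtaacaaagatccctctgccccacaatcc
Vegfa, chr17:46032378-46032627, minus strand: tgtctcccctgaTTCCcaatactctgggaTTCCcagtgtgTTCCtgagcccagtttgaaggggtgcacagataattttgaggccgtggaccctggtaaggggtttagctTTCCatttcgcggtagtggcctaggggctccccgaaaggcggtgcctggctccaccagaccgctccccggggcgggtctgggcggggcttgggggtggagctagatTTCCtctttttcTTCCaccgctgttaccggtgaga

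The core occurred 4 times before Kdr, 4 times before Flt1, 2 times before Tek and 6 times before Vegfa. Such a short motif is common, and 93.45% of 32851 promoters of the same length, counted on both strands, held at least 1, with a median of 3. GATA, searched on both strands, occurred once each before Kdr, Tek and Vegfa and not before Flt1, against 53.62% of all promoters. ACGTG, the core of the hypoxia response element, was in none of the 4 windows shown but occurred once before the second start of Vegfa, and 16.57% of all promoters held it. GGGCGG, the GC box, occurred 2 times before Kdr, 3 times before Flt1, 2 times before Vegfa and not before Tek, against 32.74% of all promoters.

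Brown fat differed from both white tissues in 4 genes that were higher: the receptors Kdr and Flt1 and the ligands Vegfa and Vegfb. Against each white tissue Angpt1 and Angpt2 were lower in iBAT, and Pecam1 and Vegfc were lower in iBAT than in eWAT. Between iBAT and iWAT 6 of the 10 genes were called, 4 higher and 2 lower in iBAT, where 54.3% of all genes tested were called, 24.0% higher and 30.3% lower. Between iBAT and eWAT 8 of the 10 were called, 4 higher and 4 lower, against a background of 54.6%, 24.4% higher and 30.2% lower. Over 10 genes these shares alone are no result about the members. Between iWAT and eWAT 0 of the 10 were called, against 10.2%. Without the 4 libraries that stood apart, 5 members were higher and 2 lower against iWAT, beside 20.7% and 24.6% of the 20162 genes tested in that fit, and 5 higher and 5 lower against eWAT, beside 25.7% and 31.4%. Calls are at an adjusted p under 0.05 in the quasi-likelihood test of edgeR, after Benjamini-Hochberg adjustment for all 18728 genes. Since the comparisons of iBAT with iWAT and with eWAT use the same 6 iBAT libraries, they are not independent of each other.

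**Figure D1:**
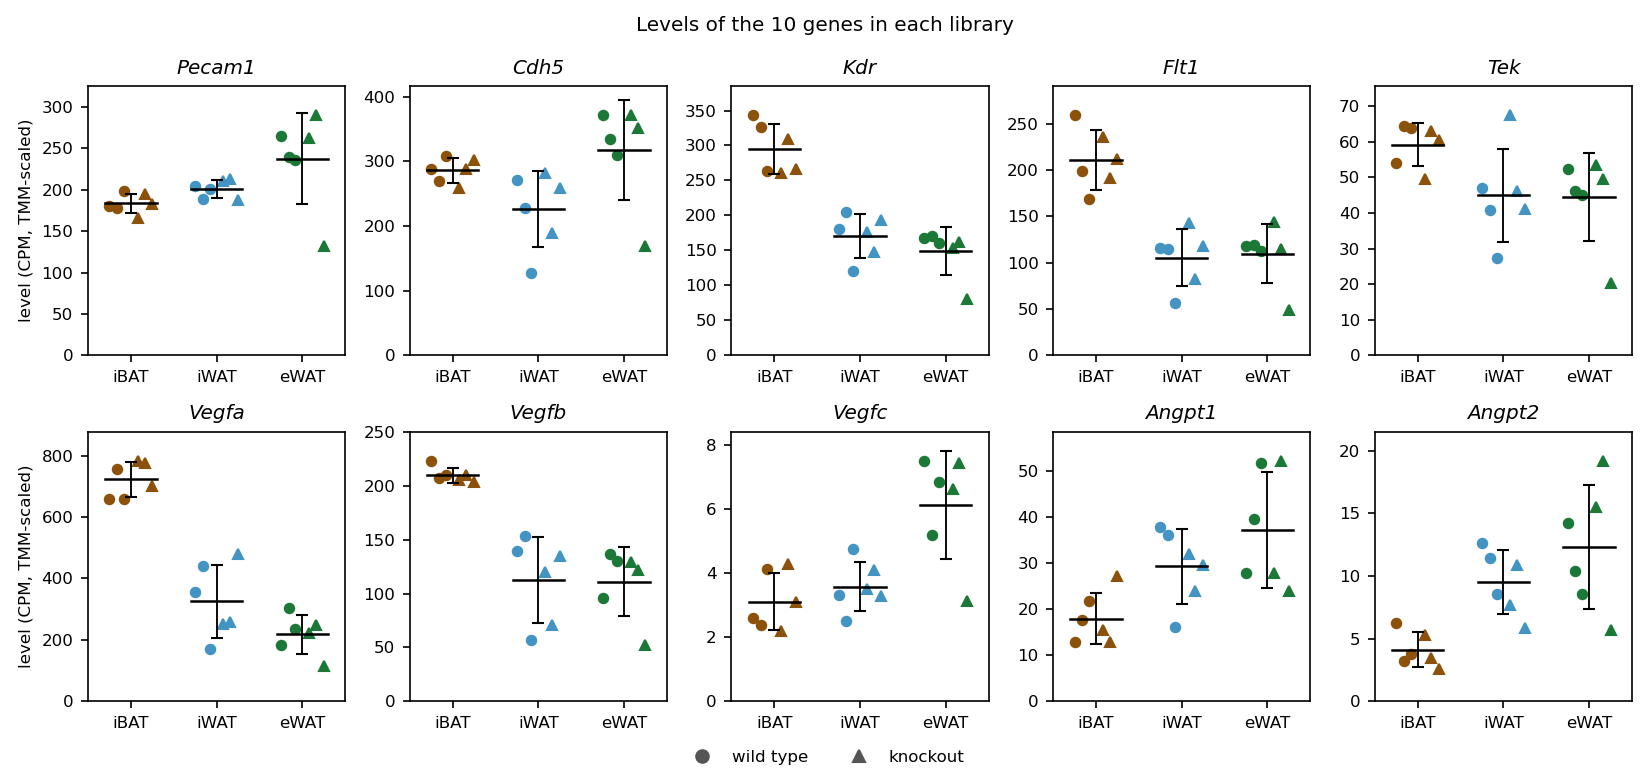
Level of each of the 10 genes in CPM (vertical axis, starting at 0) in iBAT, iWAT and eWAT; each point is 1 library, circles are wild type, triangles are knockout, and the horizontal and vertical lines are the mean and SD of 6 libraries. The iBAT points of Kdr, Flt1, Vegfa and Vegfb lie above all white fat points, and the lowest eWAT point of every gene is eWAT ko replicate 3.

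Pecam1 and Cdh5 encode adhesion proteins of endothelial junctions and serve as general endothelial markers. Pecam1 (ENSMUSG00000020717.19, chr11:106654217-106750628) is also made by platelets and leukocytes. The iBAT libraries held 166.5, 181.7 and 199.1 CPM (lowest, median and highest), the iWAT libraries 188.2, 203.1 and 213.6 CPM and the eWAT libraries 132.6, 251.4 and 290.7 CPM. All eWAT libraries but ko replicate 3 were above all iBAT and iWAT libraries. Relative to eWAT, the log2 fold change in iBAT was -0.37 ± 0.14 (SE, n = 6 and 6; edgeR adjusted p = 0.0294), and relative to iWAT it was -0.13 ± 0.14 (edgeR adjusted p = 0.43). Without any 1 of 5 of the mice (all but ko replicate 3) the call against eWAT was lost, at an edgeR adjusted p of up to 0.125.

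Cdh5 (ENSMUSG00000031871.9, chr8:104101625-104144511) encodes VE-cadherin, the cadherin of endothelial junctions. From lowest through median to highest, iBAT had 259.3, 287.7 and 308.4 CPM, iWAT had 126.6, 242.8 and 282.3 CPM, and eWAT had 168.4, 342.8 and 371.7 CPM. The iBAT libraries were the most alike, and the lowest white fat values belonged to iWAT wt replicate 3 and eWAT ko replicate 3. The log2 fold change of iBAT was 0.34 ± 0.19 (SE, n = 6 and 6) against iWAT and -0.15 ± 0.19 against eWAT, with 95% intervals of -0.07 to 0.75 and -0.56 to 0.26. Neither passed the test in edgeR (adjusted p = 0.152 and 0.524), while limma on all libraries called Cdh5 lower in iBAT than in eWAT, at -0.24 (adjusted p = 0.0283). Without the 4 libraries with genes of neighbouring tissue, Cdh5 was lower in iBAT than in eWAT by edgeR, at -0.29 (adjusted p = 0.0059).

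The ratio of Pecam1 to Cdh5 within a library does not depend on scaling. Its log2 value was -0.72 to -0.57 in the 6 iBAT libraries and -0.50 to -0.27 in the 6 eWAT libraries, so these ranges did not overlap. In iWAT it was -0.45 to -0.27 in 4 libraries, 0.17 in ko replicate 2 and 0.67 in wt replicate 3. Those 2 libraries were also the ones with lymph node genes, and their summed level of 8 leukocyte genes was 1542 and 1925 CPM, against 213 to 491 CPM in the other iWAT libraries. The part of leukocytes in the ratio was not tested. The ratio was lower in iBAT than in iWAT by 0.52 and than in eWAT by 0.23 on the log2 scale (two-sided exact permutation test, adjusted p = 0.00505 for both, over 21 ratio tests). With the tissues of a mouse paired neither passed (exact permutation test, adjusted p = 0.0656 for both). Without the 4 libraries that stood apart the difference from iWAT was -0.26 (exact permutation test, adjusted p = 0.0556), where 6 against 3 libraries cannot give a raw p below 0.0238.

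Kdr (ENSMUSG00000062960.10, chr5:75932827-75978458) encodes VEGFR2, the main signalling receptor for VEGF-A on endothelial cells. Its level (lowest, median and highest library) was 261.1, 288 and 343.8 CPM for iBAT, 120, 178 and 205 CPM for iWAT and 80.1, 161.8 and 171 CPM for eWAT. Every iBAT library was above every white fat library. On the log2 scale the fold change of iBAT was 0.79 ± 0.16 against iWAT (SE, n = 6 and 6; edgeR adjusted p = 0.000699) and 0.99 ± 0.17 against eWAT (edgeR adjusted p = 8.31e-05), which is 1.73-fold and 1.98-fold.

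Flt1 (ENSMUSG00000029648.13, chr5:147561604-147726011) encodes VEGFR1, which binds VEGF-A, VEGF-B and placental growth factor. Levels of the lowest, median and highest library were 168.7, 205.7 and 259.7 CPM for iBAT, 56.7, 115.6 and 143.4 CPM for iWAT and 48.8, 116.2 and 143.8 CPM for eWAT. No white fat library reached the lowest iBAT library. As a log2 fold change, iBAT stood at 1.01 ± 0.23 against iWAT (SE, n = 6 and 6; edgeR adjusted p = 0.00164) and 0.95 ± 0.23 against eWAT (edgeR adjusted p = 0.0025).

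Tek (ENSMUSG00000006386.15, chr4:94739289-94874976) encodes TIE2, the receptor of the angiopoietins. In iBAT the lowest, median and highest libraries had 49.4, 61.7 and 64.4 CPM, whereas iWAT had 27.3, 43.7 and 67.5 CPM and eWAT 20.3, 47.9 and 53.5 CPM. The tissues overlapped, and the highest value of all was that of iWAT ko replicate 1, the library with skeletal muscle genes. The log2 fold change of iBAT was 0.40 ± 0.21 against iWAT and 0.41 ± 0.21 against eWAT (SE, n = 6 and 6; edgeR adjusted p = 0.122 and 0.111). Leaving out the 4 libraries brought both past the threshold of edgeR, at 0.46 (adjusted p = 0.00211) and 0.26 (adjusted p = 0.0187), and without iWAT ko replicate 1 alone the difference from iWAT was 0.55 (adjusted p = 0.0338). Leaving out ko replicate 1 with all its tissues or eWAT ko replicate 3 also brought the difference from iWAT past the threshold in edgeR, at 0.59 and 0.41 (adjusted p = 0.0363 and 0.0268). So did the wild type libraries alone, at 0.66 (edgeR adjusted p = 0.024), and limma on all libraries called Tek against iWAT and eWAT, at 0.38 and 0.34 (adjusted p = 0.0185 and 0.00943).

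**Figure D2:**
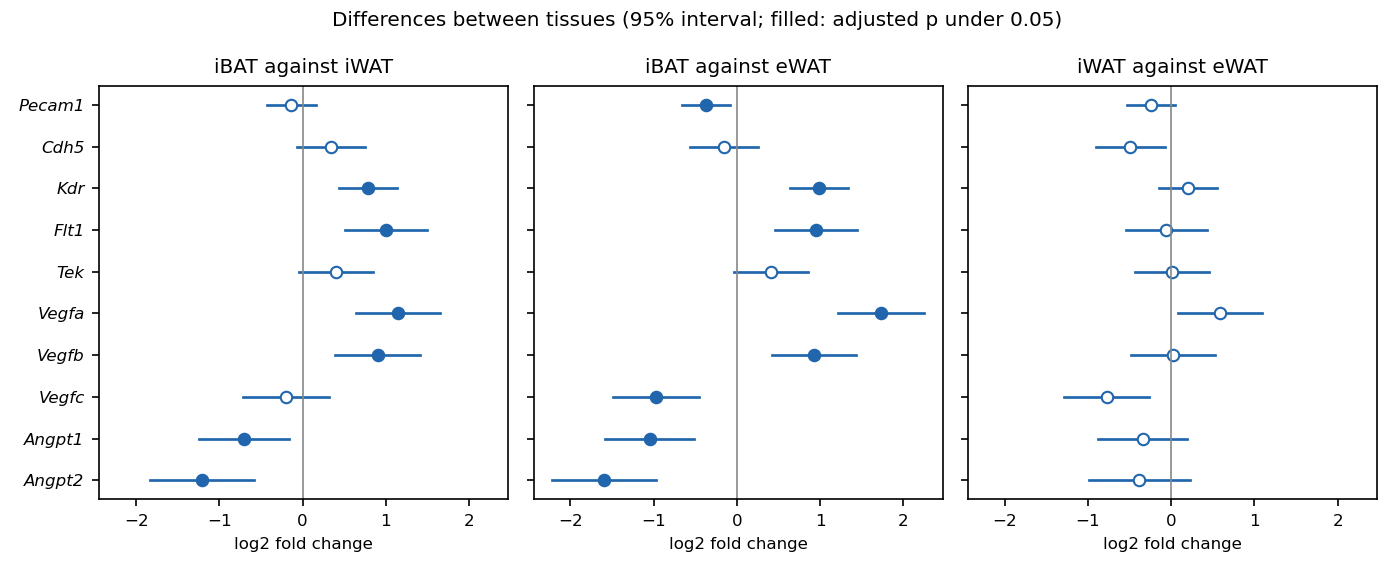
Log2 fold change between tissues for each gene (points) with its 95% interval (lines), from the edgeR fit over 18 libraries; filled points passed an adjusted p of 0.05. Kdr, Flt1, Vegfa and Vegfb lie to the right of 0 against both white tissues, Angpt1 and Angpt2 to the left, and no point is filled between iWAT and eWAT.

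The receptors were also compared with the junction genes. For each library the log2 ratio of a receptor to the mean of Pecam1 and Cdh5 was taken, the mean being over their log2 counts. For Kdr the lowest, median and highest log2 ratios were 0.09, 0.36 and 0.60 for iBAT, -0.47, -0.40 and -0.02 for iWAT, and -1.02, -0.90 and -0.73 for eWAT. The 3 tissues did not overlap, with iBAT highest and eWAT lowest. The differences were 0.68 between iBAT and iWAT, 1.24 between iBAT and eWAT and 0.56 between iWAT and eWAT (two-sided exact permutation test, n = 6 and 6, adjusted p = 0.00505 for each). The corresponding raw p of 0.00216 is the smallest that 6 against 6 libraries allow. Pecam1 is made by leukocytes too, whose 8 genes summed to 48.2 to 133.5 CPM for iBAT and 213 to 1925 CPM for iWAT, so the ratios were also taken to Cdh5 alone, a choice made after the data were seen. Relative to Cdh5 alone Kdr differed by 0.42, 1.13 and 0.71 in the same order of comparisons (exact permutation test, adjusted p = 0.0248, 0.00455 and 0.00455).

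The same log2 ratio of Flt1 was -0.55 to 0.19 for iBAT, -1.49 to -0.77 for iWAT and -1.62 to -1.12 for eWAT. It was higher in iBAT by 0.92 and 1.23 (exact permutation test, adjusted p = 0.00505 for both), and the difference of 0.30 between iWAT and eWAT did not pass (exact permutation test, adjusted p = 0.0944), though it did without iWAT wt replicate 3 (0.39, adjusted p = 0.0331) or without wt replicate 3 in every tissue (0.41). Relative to Cdh5 alone Flt1 differed by 0.66, 1.115 and 0.45 between iBAT and iWAT, iBAT and eWAT, and iWAT and eWAT (exact permutation test, adjusted p = 0.00455 for each). For Tek the log2 ratio was -2.07 to -1.76 for iBAT, -2.55 to -1.85 for iWAT and -2.88 to -2.55 for eWAT. Its difference was 0.69 between iBAT and eWAT (exact permutation test, adjusted p = 0.00505), 0.38 between iWAT and eWAT (adjusted p = 0.00909) and 0.31 between iBAT and iWAT (adjusted p = 0.0492). The last was not called without wt replicate 1, 2 or 3, ko replicate 2 or 3, or iWAT wt replicate 3, at 0.26 to 0.33. It rested on Pecam1 in the denominator, since relative to Cdh5 alone Tek differed by 0.053 between iBAT and iWAT (exact permutation test, adjusted p = 0.78), against 0.58 between iBAT and eWAT and 0.53 between iWAT and eWAT (adjusted p = 0.00455 for both). The Tek ratio without the 4 libraries that stood apart differed by 0.24 between iWAT and eWAT (exact permutation test, adjusted p = 0.0577) and by 0.41 between iBAT and iWAT (adjusted p = 0.0556), neither of which passed. The Kdr ratio then differed by 0.56 between iBAT and iWAT and 0.68 between iWAT and eWAT, and the Flt1 ratio by 0.79 between iBAT and iWAT (exact permutation test, adjusted p = 0.0556, 0.0577 and 0.0556). With the tissues of a mouse kept together as pairs, an exact permutation test over 6 mice cannot give a raw p below 0.03125. None of the receptor ratios passed in that form, with an adjusted p of 0.0656 to 0.141 and the same differences.

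**Figure D3:**
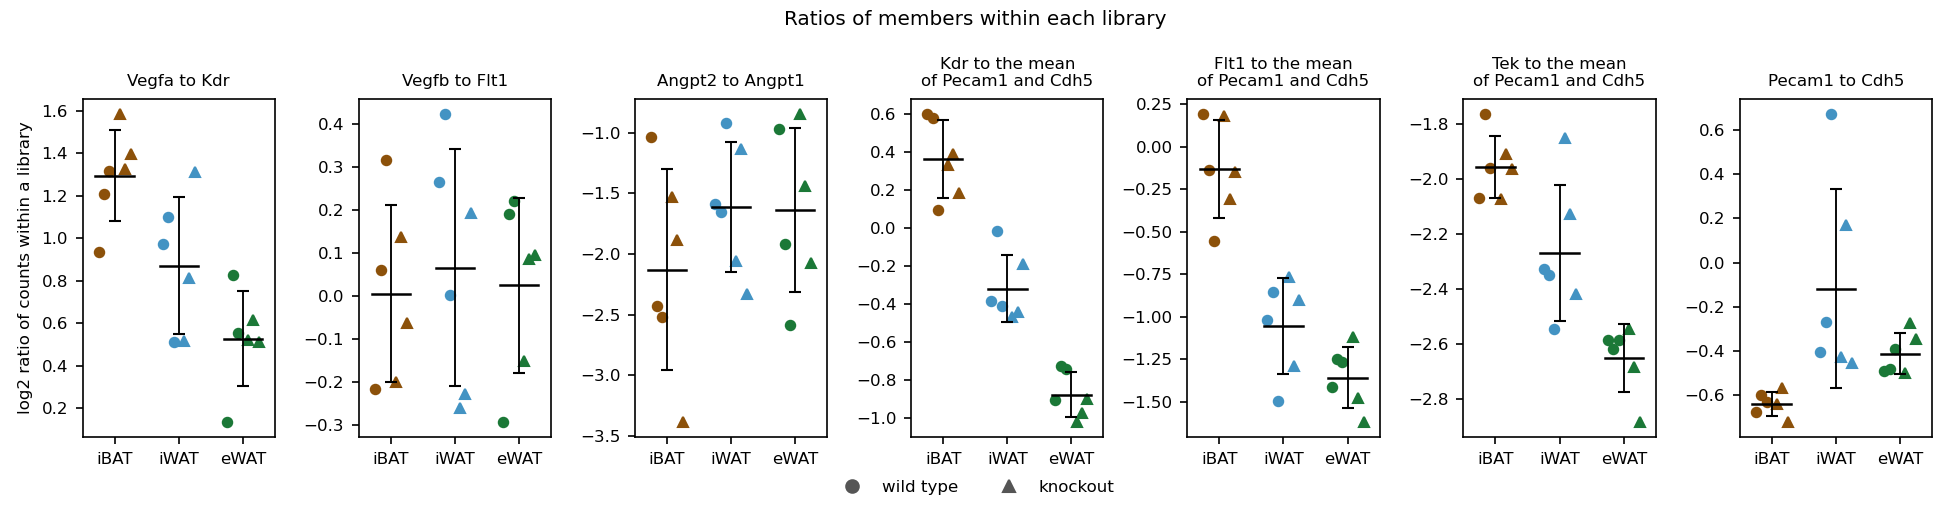
Log2 ratio of 2 genes, or of a gene to the mean of Pecam1 and Cdh5, from the counts within each library (vertical axes differ between panels and do not start at 0); circles are wild type, triangles are knockout, lines are mean and SD of 6 libraries per tissue. The Kdr ratio steps down from iBAT to iWAT to eWAT without overlap, and the ratio of Vegfb to Flt1 overlaps in all tissues.

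Vegfa (ENSMUSG00000023951.18, chr17:46016993-46032369) encodes VEGF-A, the chief growth factor of blood vessels. The iBAT libraries held 658, 728.6 and 783.1 CPM (lowest, median and highest), the iWAT libraries 171.3, 307 and 479.2 CPM and the eWAT libraries 114.1, 228.6 and 303.7 CPM. Each iBAT library held more than any white fat library. On the log2 scale the fold change of iBAT was 1.15 ± 0.24 against iWAT (SE, n = 6 and 6; edgeR adjusted p = 0.000732) and 1.73 ± 0.25 against eWAT (edgeR adjusted p = 1.51e-05), or 2.22-fold and 3.32-fold. Over the 9 other settings that did not leave out a single mouse or library, it was 0.75 to 1.18 and 1.52 to 1.75.

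Vegfb (ENSMUSG00000024962.13, chr19:6982473-6987651) encodes VEGF-B, a ligand of VEGFR1 but not of VEGFR2. From lowest through median to highest, iBAT had 203.4, 208.8 and 223.5 CPM, iWAT had 56.8, 127.3 and 154 CPM, and eWAT had 52.1, 125.6 and 136.5 CPM. The iBAT libraries differed little among themselves, with an SD of 3.39% of the mean, and did not overlap with white fat. As a log2 fold change, iBAT stood at 0.90 ± 0.24 against iWAT and 0.92 ± 0.24 against eWAT (SE, n = 6 and 6; edgeR adjusted p = 0.00449 and 0.00371). In the wild type libraries alone, 3 per tissue, the differences were 0.87 and 0.82 and did not pass the test in edgeR (adjusted p = 0.0639 and 0.0775). Over the 9 other settings that did not leave out a single mouse or library, these among them, they were 0.55 to 0.93 and 0.75 to 0.94.

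Vegfc (ENSMUSG00000031520.6, chr8:54077606-54187096) encodes VEGF-C, the ligand of the lymphatic receptor VEGFR3. It had few counts, 28 to 64 per library for iBAT, 73 to 144 for iWAT and 63 to 307 for eWAT. Its level (lowest, median and highest library) was 2.19, 2.85 and 4.28 CPM for iBAT, 2.52, 3.42 and 4.75 CPM for iWAT and 3.12, 6.76 and 7.52 CPM for eWAT. The eWAT libraries other than ko replicate 3 were above all iBAT and iWAT libraries. It was lower in iBAT than in eWAT by -0.98 ± 0.24 on the log2 scale (SE, n = 6 and 6; edgeR adjusted p = 0.00286), and the difference from iWAT was -0.20 ± 0.24 (edgeR adjusted p = 0.506).

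Vegfa, Vegfb, Kdr and Flt1 were the members whose iBAT libraries were all above all iWAT libraries, where 17.7% of genes tested did so, and all above all eWAT libraries, where 18.8% did. The ratio of ligand to receptor was also taken within libraries. Vegfa relative to Kdr had a mean log2 ratio of 1.295 ± 0.22 for iBAT, 0.87 ± 0.32 for iWAT and 0.53 ± 0.22 for eWAT (SD, n = 6). It was higher in iBAT than in eWAT by 0.77 (two-sided exact permutation test, adjusted p = 0.00505) and than in iWAT by 0.42 (adjusted p = 0.0492). With the tissues of a mouse paired neither was called (exact permutation test, adjusted p = 0.0656 and 0.109). The call against iWAT was lost without the 4 libraries, where the difference was 0.17 (exact permutation test, adjusted p = 0.353). It was also lost without wt replicate 2 or 3, ko replicate 1 or 2, iWAT wt replicate 3, iWAT ko replicate 1 or iWAT ko replicate 2, at 0.29 to 0.49. Vegfb relative to Flt1 had a mean log2 ratio of 0.01 ± 0.21 for iBAT, 0.07 ± 0.28 for iWAT and 0.03 ± 0.20 for eWAT (SD, n = 6), and none of its 3 comparisons passed.

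Angpt1 (ENSMUSG00000022309.9, chr15:42424723-42676977) encodes the agonist of TIE2 that stabilises vessels. Levels of the lowest, median and highest library were 12.8, 16.5 and 27.2 CPM for iBAT, 16.2, 30.8 and 37.8 CPM for iWAT and 24, 33.7 and 52.2 CPM for eWAT. Most iBAT libraries were below most white fat libraries, with overlap at the ends. The log2 fold change of iBAT was -0.71 ± 0.25 against iWAT and -1.05 ± 0.26 against eWAT (SE, n = 6 and 6; edgeR adjusted p = 0.0267 and 0.00229). The call against iWAT was lost without wt replicate 1, wt replicate 2, ko replicate 1, ko replicate 2 or iWAT ko replicate 1, at an edgeR adjusted p of up to 0.122, and in the wild type libraries alone (-0.79, adjusted p = 0.106).

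Angpt2 (ENSMUSG00000031465.6, chr8:18690263-18741562) encodes the partner that opposes ANGPT1 in many settings and is made by endothelial cells. In iBAT the lowest, median and highest libraries had 2.58, 3.6 and 6.25 CPM, whereas iWAT had 5.87, 9.72 and 12.6 CPM and eWAT 5.69, 12.3 and 19.2 CPM. Only iBAT wt replicate 1 overlapped with white fat, where it exceeded the lowest library of each tissue. On the log2 scale the fold change of iBAT was -1.21 ± 0.29 against iWAT and -1.59 ± 0.30 against eWAT (SE, n = 6 and 6; edgeR adjusted p = 0.00231 and 0.000236). The mean log2 ratio of Angpt2 to Angpt1 was -2.13 ± 0.83 for iBAT, -1.61 ± 0.53 for iWAT and -1.64 ± 0.67 for eWAT (SD, n = 6), and none of its 3 comparisons passed.

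Between the white tissues no member passed in edgeR, although 3 had an unadjusted p under 0.05. These were Cdh5 with a log2 fold change in iWAT of -0.49 ± 0.20 (edgeR adjusted p = 0.121), Vegfa with 0.58 ± 0.24 (adjusted p = 0.134) and Vegfc with -0.77 ± 0.24 (adjusted p = 0.0508). This result depended on the tool and on the libraries with genes of neighbouring tissue. On all 18 libraries limma, which weights libraries by their quality, called Pecam1, Cdh5, Vegfa and Vegfc, at -0.35, -0.45, 0.50 and -0.999 (adjusted p = 0.00888, 0.00591, 0.0414 and 0.00169). In the fit without the 4 libraries, where 10.2% of genes were called, Vegfa was higher in iWAT by 0.83 (edgeR adjusted p = 0.00197), and Pecam1, Cdh5 and Vegfc were lower by -0.41, -0.46 and -1.14 (adjusted p = 0.0113, 0.00762 and 0.00881). Without eWAT ko replicate 3 alone 3 members passed, Pecam1, Cdh5 and Vegfc, and without iWAT wt replicate 3 alone 2 did, Vegfa and Vegfc. Vegfc also passed with the mouse as a block (edgeR adjusted p = 0.0294) and in DESeq2 (adjusted p = 0.0129).

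Levels were also divided by exon length, to order genes within a tissue. The length was that of all annotated exons over all transcripts of a gene, such as 13504 bases for Flt1 and 1605 for Vegfb. The order therefore depends on the annotation too. In iBAT the mean order in CPM per kilobase was Vegfa at 168.5 ± 13.3, Vegfb at 130.9 ± 4.44, Cdh5 at 68 ± 4.46, Kdr at 32.7 ± 3.99, Pecam1 at 29.5 ± 1.90, Flt1 at 15.6 ± 2.41, Tek at 12.6 ± 1.29, Angpt1 at 3.44 ± 1.08, Vegfc at 1.27 ± 0.37 and Angpt2 at 1.11 ± 0.38 (SD, n = 6). Of the neighbours in this order, Kdr and Pecam1, Flt1 and Tek, and Vegfc and Angpt2 had overlapping ranges. In eWAT Cdh5 stood first at 75.6 ± 18.3 CPM per kilobase, followed by Vegfb at 69.2 ± 20.1 and Vegfa at 50.9 ± 14.98, and these overlapped. In iWAT the order began with Vegfa at 76.1 ± 27.8, Vegfb at 70.2 ± 24.8 and Cdh5 at 53.7 ± 14.0 CPM per kilobase, again with overlap. In both white tissues Pecam1 and Kdr, next to each other in the order, did not overlap, and Angpt1, Angpt2 and Vegfc came last.

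Other genes of the VEGF and angiopoietin pathways moved in both directions. The counts of this and the following lists stand beside 24.0% of all genes tested that were higher and 30.3% that were lower in iBAT than in iWAT, and 24.4% and 30.2% against eWAT. Of 8, 4 were higher and 3 lower in iBAT than in iWAT, and 2 were higher and 4 lower than in eWAT. The co-receptor genes Nrp2 and Nrp1 were both higher in iBAT than in eWAT, with log2 fold changes of 1.46 ± 0.20 (edgeR adjusted p = 1.06e-05) and 0.81 ± 0.19 (adjusted p = 0.00151). Tie1, the orphan partner of TIE2, was higher in iBAT than in iWAT by 0.74 ± 0.19 (edgeR adjusted p = 0.00304). Vegfd, a second ligand of VEGFR3, fell against both white tissues, and its level was 3.48 to 5.82 CPM for iBAT, 12.2 to 33 CPM for iWAT and 13.8 to 36.3 CPM for eWAT. Pgf, which encodes placental growth factor, was lower in iBAT than in iWAT, with 2 to 9 counts per library against 39 to 176. Angpt4 had 0 to 4 counts in iBAT libraries and 37 to 410 in eWAT.

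Of 18 other endothelial genes only Adgrl4, an adhesion receptor gene of endothelial cells, was higher in iBAT than in iWAT, by 0.50 ± 0.18 (edgeR adjusted p = 0.0313), and 5 were lower, a share near that of all genes. Against eWAT 0 were higher and 9 lower. The lower genes became 9 against iWAT and 13 against eWAT without the 4 libraries that stood apart. The list's median log2 fold change was -0.22 against iWAT and -0.43 against eWAT, beside medians of -0.14 and -0.17 over all genes tested and of 0.37 and 0.13 over the 10 members. Plvap, which forms the diaphragms of permeable capillaries, held 11.2 to 21.1 CPM across iBAT libraries, 55.3 to 150.4 CPM across iWAT and 44.2 to 129 CPM across eWAT. Its log2 fold change was -2.77 ± 0.28 against iWAT and -2.33 ± 0.28 against eWAT (edgeR adjusted p = 4.96e-07 and 2.31e-06). Vwf, the gene of von Willebrand factor, was lower in iBAT than in eWAT by -1.85 ± 0.31 (edgeR adjusted p = 8.26e-05).

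Among 11 Notch and sprouting genes, 0 were higher in iBAT, 3 were lower than in iWAT and 5 lower than in eWAT, and without the 4 libraries 5 and 8. The share lower than in iWAT was near that of all genes. Apln, a peptide gene of sprouting tip cells, was lower in iBAT than in eWAT by -2.46 ± 0.46 (edgeR adjusted p = 0.00023), and the Notch ligand gene Jag1 was lower than in iWAT by -0.73 ± 0.17 (adjusted p = 0.00177). All 5 lymphatic endothelial genes were lower in iBAT than in iWAT and 3 were lower than in eWAT. The first count rested on the libraries that stood apart, since without these 4 it was 2 of 5, while 4 of 5 were then lower than in eWAT. Lyve1, a hyaluronan receptor gene of lymphatic vessels and of some macrophages, held 0.776 to 4.15 CPM across iBAT libraries, 6.27 to 55.1 CPM across iWAT and 4.26 to 33.8 CPM across eWAT. The leukocyte genes moved with these lists: 8 of 8 were lower in iBAT than in iWAT and 6 of 8 lower than in eWAT, and their sum was 48.2 to 133.5 CPM for iBAT, 213 to 1925 CPM for iWAT and 136.5 to 522 CPM for eWAT. Without the 4 libraries 7 of 8 were lower against each white tissue. Their part in the differences of Pecam1, Plvap or the lymphatic genes was not tested. Of 7 genes of erythrocytes and platelets in the table, 1 fell and 0 rose in iBAT against either white tissue, and without the 4 libraries 2 fell against iWAT and 3 against eWAT.

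Mural cell genes, which mark pericytes and smooth muscle around vessels, were called in few cases. Of 7, 2 were higher in iBAT than in iWAT, among them the pericyte gene Rgs5 by 1.01 ± 0.24 (edgeR adjusted p = 0.00235), and 1 was higher than in eWAT, Cspg4, by 1.70 ± 0.42 (adjusted p = 0.00263), while 0 were lower (2 against eWAT without the 4 libraries). Of 6 angiogenesis inhibitors, 4 were lower in iBAT than in iWAT and 6 lower than in eWAT (5 without the 4 libraries), with none higher. Thbs2, a thrombospondin gene, held 1.55 to 3.18 CPM across iBAT libraries, 19.8 to 68.8 CPM across iWAT and 5.15 to 19.4 CPM across eWAT. Serpinf1, the gene of pigment epithelium-derived factor, was lower in iBAT than in iWAT by -2.69 ± 0.29 (edgeR adjusted p = 7.66e-07).

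Of 8 genes that sense oxygen or are known to regulate Vegfa, 5 rose and 1 fell in iBAT against each white tissue (2 fell against eWAT without the 4 libraries). Esrra, the gene of a nuclear receptor that acts with the coactivator PGC-1 alpha, had log2 fold changes of 2.22 ± 0.15 and 2.40 ± 0.15 against iWAT and eWAT (edgeR adjusted p = 6.82e-09 and 1.86e-09). Egln1, an oxygen-sensing prolyl hydroxylase gene, rose by 1.98 ± 0.20 and 2.17 ± 0.20 (edgeR adjusted p = 3.44e-07 and 9.71e-08). Vhl, whose product marks hypoxia-inducible factors for degradation, was lower by -0.65 ± 0.14 and -0.93 ± 0.14 (edgeR adjusted p = 0.000708 and 2.25e-05). Of 7 other targets of hypoxia, 1 was higher and 3 were lower against either white tissue (5 lower than in eWAT without the 4 libraries). Adm, the gene of adrenomedullin, was lower in iBAT by -2.26 ± 0.20 and -2.98 ± 0.20 (edgeR adjusted p = 9.63e-08 and 3.67e-09), and Pdk1, a kinase gene of glucose oxidation, was higher by 1.55 ± 0.36 and 1.89 ± 0.37 (adjusted p = 0.00164 and 0.000349).

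**Figure D4:**
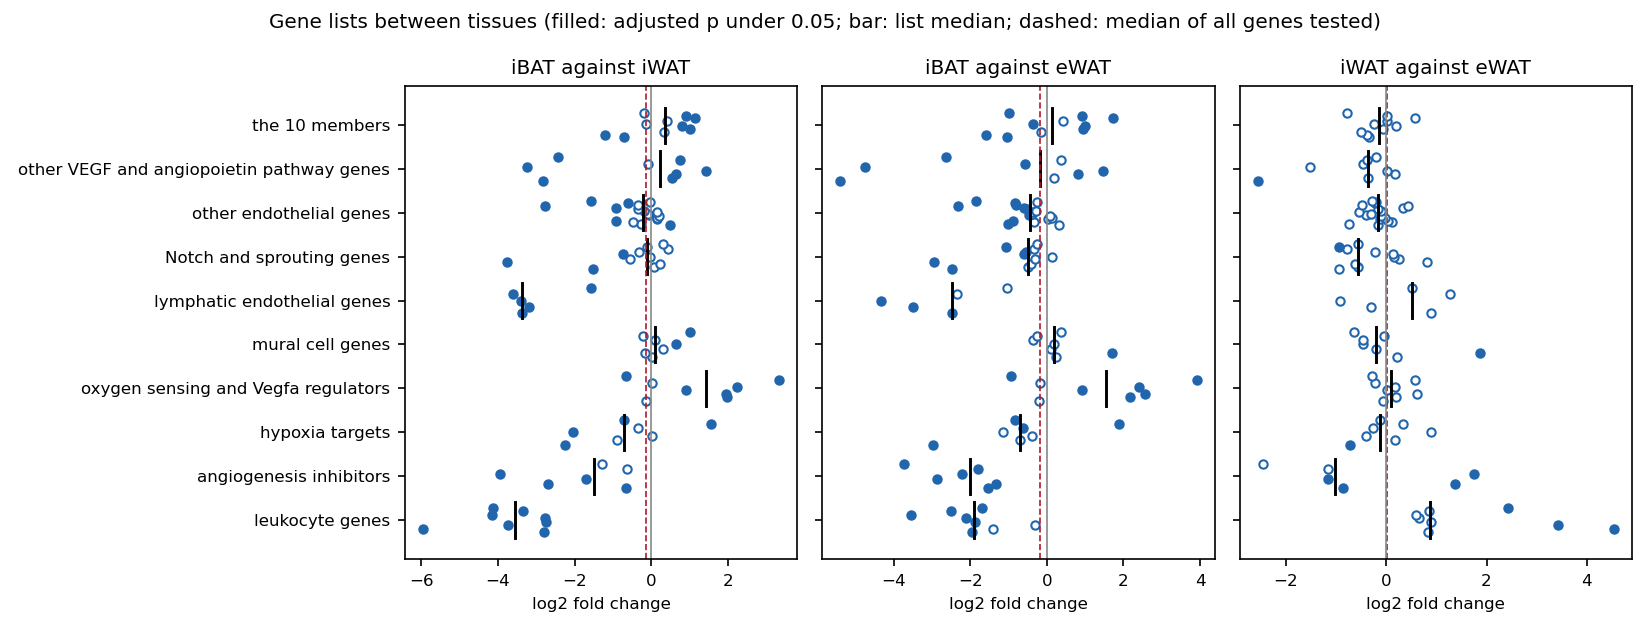
Log2 fold change of each gene of 10 lists (rows) between 2 tissues (panels); filled points passed an adjusted p of 0.05 in edgeR, the black bar is the list median and the dashed line the median of all 18728 genes tested. Against both white tissues the lymphatic, inhibitor and leukocyte lists lie left of 0 and the oxygen-sensing list mostly right, while the 10 members lie on both sides.

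Between iWAT and eWAT, where 10.2% of all genes were called, the calls were 1 of 8 further pathway genes, 0 of 18 endothelial, 1 of 11 Notch and sprouting, 0 of 5 lymphatic, 1 of 7 mural, 0 of 8 oxygen-sensing and 1 of 7 hypoxia genes. Of the 8 leukocyte genes 3 were higher in iWAT. In the fit without the 4 libraries these counts became 3 of 8 further pathway genes, 1 of 18 endothelial, 1 of 11 Notch and sprouting, 2 of 5 lymphatic, 2 of 7 mural, 1 of 8 oxygen-sensing, 2 of 7 hypoxia and 0 of 8 leukocyte genes. For the 18 endothelial genes 2 had an unadjusted p under 0.05. Of the 6 inhibitors, 2 were higher and 2 lower in iWAT, or 1 and 2 without the 4 libraries. Thbs2 was higher by 1.74 ± 0.34 and Thbs1 lower by -1.16 ± 0.29 (edgeR adjusted p = 0.00398 and 0.0203).

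After the mean of each tissue was removed, the members' log2 CPM varied together over the 18 libraries to unequal degrees. These correlations are descriptions, since libraries share their mice and the 4 libraries that stood apart, and they were not taken without those 4. Vegfb, for example, held 56.8 CPM in iWAT wt replicate 3, 70.5 CPM in iWAT ko replicate 2 and 52.1 CPM in eWAT ko replicate 3. The other white fat libraries held 96.1 to 154 CPM. The part of the 4 libraries in the correlations was not tested. Cdh5 went with Flt1 (r = 0.90) and Tek (r = 0.90), and Vegfa with Vegfb (r = 0.89), while r was 0.02 for Angpt1 with Angpt2 and 0.00 for Vegfa with Vegfc. Among all genes tested, those most like Cdh5 were Lrp3 (r = 0.97), the endothelial adhesion gene Esam (r = 0.97) and Tie1 (r = 0.97). Kdr was most like Ptms (r = 0.94), Jam2 (r = 0.93) and Adgrl4 (r = 0.93), and the 5 genes most like Flt1 included Epas1 (r = 0.96), which encodes the hypoxia-inducible factor HIF-2 alpha. The 5 genes most like Vegfa included Mcrip2 (r = 0.96) and the mitochondrial enzyme gene Sdhd (r = 0.95). Vegfb was most like Proca1 (r = 0.98) and Sdhc (r = 0.98).

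The loss of Gm15551 was compared within each tissue and across tissues, and no member was called in any of these comparisons. Over all 18728 genes, 1 was called across tissues (0.00534%), 0 within iBAT (0%), 0 within iWAT (0%) and 1 within eWAT (0.00534%). None of the 10 members had an unadjusted p under 0.05 in any of them by edgeR on all 18 libraries, and DESeq2 and limma also called 0. Across tissues the members' log2 fold changes in ko ran from -0.15 ± 0.13 for Kdr to 0.05 ± 0.17 for Tek (SE, n = 9 and 9 libraries; edgeR adjusted p = 1 for each). The 9 libraries of a genotype came from 3 mice and were treated as separate, so these SEs and the intervals across tissues may be too narrow.

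The levels overlapped between genotypes for every member in every tissue. In iBAT, Kdr was at 343.8, 326.6 and 264 CPM in wt and 261.1, 309.4 and 266.5 CPM in ko, and Vegfa at 658, 754.8 and 658.1 CPM in wt and 783.1, 776.5 and 702.3 CPM in ko. In iWAT, Tek was at 47, 40.7 and 27.3 CPM in wt and 67.5, 46.1 and 41.2 CPM in ko, which gave the largest log2 fold change of any member in a single tissue, 0.43 ± 0.29. This order rested on the libraries that stood apart: without these 4, which leaves 1 ko library in iWAT, Angpt2 had log2 fold changes of -1.04 in iWAT and 0.64 in eWAT (edgeR adjusted p = 0.998 and 1). In limma on all libraries Angpt2 was at 0.80 in eWAT (unadjusted p = 0.00135, adjusted p = 0.294). In eWAT, Kdr was at 167.2, 171 and 161.1 CPM in wt and 153.9, 162.5 and 80.1 CPM in ko. The low values were those of eWAT ko replicate 3, and the log2 fold change of Kdr in eWAT was -0.33 ± 0.24. Of all genes tested, 4.94% did not overlap within iBAT, 4.92% within iWAT and 5.25% within eWAT.

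The 95% intervals across tissues ran from -0.27 to 0.20 on the log2 scale for Pecam1, the narrowest, and from -0.62 to 0.38 for Angpt2, the widest. Within a tissue of 3 against 3 libraries that of Vegfa spanned -0.62 to 0.87 for iBAT, -0.71 to 0.78 for iWAT and -1.06 to 0.44 for eWAT, so changes within these bounds are not excluded by the data. On simulated counts for ko against wt in iBAT (18272 genes), the edgeR test recovered 0%, 14.3% and 56.3% of genes changed 1.5-, 2- and 4-fold. The test of whether the genotype effect differed between tissues called 0 members and 0 of all genes, with 264 genes at an unadjusted p under 0.05 in edgeR.

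**Figure D5:**
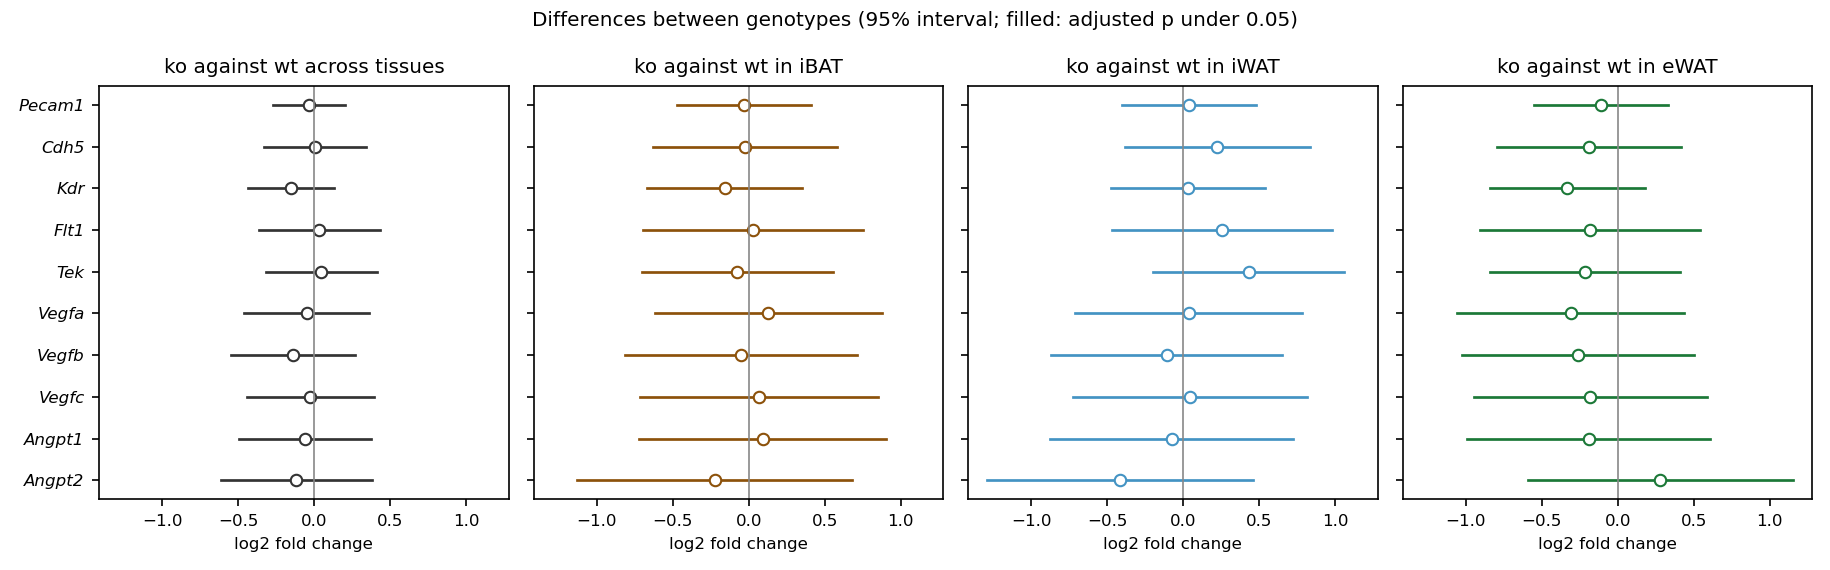
Log2 fold change of ko against wt for each gene (points) with its 95% interval (lines), across tissues and in each tissue, from the edgeR fits over 18 libraries; filled points would mark an adjusted p under 0.05. No point is filled and every interval spans 0.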

How the data were processed

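Polyadenylated RNA of 18 libraries was analysed, from 3 wt and 3 ko mice in each of 3 tissues, grouped by the library titles. The mouse identifier in the labels shows that each mouse gave all 3 tissues. The authors trimmed reads with cutadapt and ran salmon against GENCODE M22, or M22 with RNAcentral, on GRCm38. The deposited values are estimated counts, whole and not normalized. Which reference was used, and the strand setting, are not given in the sources used here. Salmon divides reads between similar transcripts, so such genes carry some uncertainty.

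Genes were filtered with filterByExpr by group, scaled by the trimmed mean of M values and tested in edgeR 4.0.16 (R 4.3.3) by quasi-likelihood, with terms for tissue and genotype, or 1 mean per group for effects within a tissue. Benjamini-Hochberg adjustment covered all 18728 genes. Log2 ratios within a library used a pseudocount of 0.5 and two-sided exact permutation tests (SciPy 1.17.1), adjusted over 21 tests. All 10 members were named, and from each other list up to 2 genes per direction and tissue comparison with the smallest p among those called. For likeness, names come from the 5 highest correlations, and Ucp1 and Wt1 check the labels. The members and lists were chosen with earlier results of these data known, and a list's count is a description. Positions are from GENCODE M21 and promoters from RefSeq, both on GRCm38. Alternatives were DESeq2 1.42.0, limma 3.58.1 (voom with quality weights), other scalings, filters and pseudocounts, Cdh5 alone as denominator, wild type libraries alone, left-out libraries and a block. The block was the mouse between tissues and the replicate number between genotypes. Deviations of libraries of the same mouse from their group means correlated at -0.15 to 0.34. No libraries of a group were near-identical, with a chi-square per gene of at least 18.1. On counts simulated for iBAT against iWAT (18256 genes), 13.3%, 32.5% and 76.7% of genes changed 1.5-, 2- and 4-fold were recovered, and the lower shares for genotype are given above. Only 60, 80 and 60 genes were changed at these folds, whereas 10164 genes were called in the data. The adjusted p depends on that number, so these shares do not give the power of the real tissue comparison. With 3 counts as the limit where a gene had 0, the floor was 0.0728 to 0.235 CPM, for counting error only.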

Additional observations from a re-analysis of the deposited data

Results flagged for a closer look

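In 51 comparisons of the highest or lowest of 6 libraries with the rest, 6 passed the critical value of Dixon's test, where about 2.55 would pass by chance at 1 in 20. In 5 of them eWAT ko replicate 3 was far below the other eWAT libraries: Pecam1 at 132.6 CPM (next lowest 235.7), Cdh5 at 168.4 CPM (309.2), Kdr at 80.1 CPM (153.9), Flt1 at 48.8 CPM (112.2) and Tek at 20.3 CPM (45). This library had the fewest counts, 14997901, and a summed level of 6 epididymis genes of 4819 CPM, against at most 16.6 CPM in the other eWAT libraries. Some lists of other cell types were lowest there too: 8 leukocyte genes summed to 136.5 CPM (329.9 to 521.6 CPM in the other eWAT libraries), 5 adipocyte genes to 9966 CPM (14800.2 to 22716 CPM), 7 mural genes to 432.7 CPM (647.2 to 896 CPM) and 7 erythrocyte and platelet genes to 328.6 CPM (705.2 to 1127 CPM). Other lists were not lowest there. The lymphatic endothelial genes summed to 51.9 CPM, within 22.5 to 58.5 CPM over all eWAT libraries. The mesothelial genes summed to 75.7 CPM (58 to 111.9 CPM) and the lymph node genes to 18.4 CPM (13.8 to 61 CPM). The part of these cell types in the low values was not tested. The remaining case was Vegfb in iBAT wt replicate 1, at 223.5 CPM above a next highest of 210.6 CPM.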

How the results depend on the processing

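The 10 members were tested under other scalings, filters, tools and sets of libraries, and of 1300 values recomputed 1143 were retained. For a test this means the same direction and side of the threshold, for a count of calls a value within 1.5 times the reported one, and for the extreme genotype fold change of a member a shift under 1 typical SE. The higher levels of Kdr, Flt1 and Vegfa in iBAT, and the lower level of Angpt2, kept direction and call in all settings tried.

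Counts of all genes called moved most in the wild type libraries alone, to 6595 (iBAT against iWAT), 6574 (iBAT against eWAT) and 247 (iWAT against eWAT), where fewer libraries were tested. With at least 10 counts in every library, 1149 genes were called between iWAT and eWAT and 0 for the ko across tissues and in eWAT. Leaving out a mouse or library in turn gave 750 to 2028 genes and 0 to 3 members between iWAT and eWAT. For the ko it gave 0 to 1 genes within each tissue. DESeq2 called 4 genes across tissues, 13 in iBAT, 4 in iWAT and 13 in eWAT, and limma called 2 across tissues and 3 in eWAT. Without a filter 1 was called in iWAT, and with the libraries of that tissue alone 0 in eWAT. Without the 4 libraries that stood apart 1 was called in iBAT, 11 in iWAT and 2 for the interaction, where iWAT had a single ko library, assumed to vary like the other groups. Between iWAT and eWAT 1 member was called by DESeq2, 4 by limma and 4 without the 4 libraries. The cause was not tested.

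The block was the mouse between tissues, and between genotypes the replicate number, which joins same-numbered wt and ko mice. With it, 1 member was called between iWAT and eWAT, and 3 genes across tissues and 0 in eWAT for the ko. Same-numbered wt and ko mice have neighbouring identifiers, but no source used here says that a number marks 1 litter. Their deviations correlated at 0.43, -0.01 and 0.35 (iBAT, replicates 1 to 3), 0.61, -0.56 and -0.28 (iWAT) and -0.32, 0.33 and -0.27 (eWAT), so outside the block the numbers were not taken as pairs for genotype. The paired exact tests left each log2 ratio as it was and lost 12 calls. In 10 of these the raw p was 0.03125, the smallest that 6 pairs allow, and in the other two, both iBAT against iWAT, it was 0.0625 for Vegfa to Kdr and 0.0938 for Tek. These were 0.42 and 0.77 for Vegfa to Kdr (iBAT against iWAT and eWAT), 0.68, 1.24 and 0.56 for Kdr, 0.92 and 1.23 for Flt1, 0.31, 0.69 and 0.38 for Tek, and -0.52 and -0.23 for Pecam1 to Cdh5. The block changed no other call.

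Without the 4 libraries the log2 ratios that lost their call were 0.17 for Vegfa to Kdr, 0.56 for Kdr, 0.79 for Flt1, 0.41 for Tek and -0.26 for Pecam1 to Cdh5 (iBAT against iWAT), and 0.68 for Kdr and 0.24 for Tek (iWAT against eWAT), where the smallest raw p was 0.0238 or 0.0357. Angpt2 to Angpt1 turned to -0.31 between iWAT and eWAT. In turn without each mouse or library, Vegfa to Kdr was 0.29 to 0.52 and Tek 0.26 to 0.42 between iBAT and iWAT, Flt1 0.22 to 0.41 between iWAT and eWAT, Angpt2 to Angpt1 -0.30 to 0.27 between iWAT and eWAT, and Vegfb to Flt1 -0.14 to 0.024 (iBAT against iWAT), -0.043 to 0.0084 (iBAT against eWAT) and -0.063 to 0.11 (iWAT against eWAT).

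Differences near 0 that were not called also changed sign. Between iWAT and eWAT, Tek was -0.036 in limma, -0.20 without the 4 libraries and -0.32 in wild type libraries, where Vegfb was -0.050. With mice or libraries left out Tek was -0.16 to 0.13, Flt1 -0.25 to 0.085 and Vegfb -0.19 to 0.20. Vegfc in iBAT against iWAT was 0.012 without the 4 libraries. With Cdh5 alone as denominator the Tek ratio between iBAT and iWAT was 0.053 and lost its call, and that of Flt1 between iWAT and eWAT was 0.45 and gained one. This and the single libraries left out were chosen after the data were seen. Only 3 animals per group and the 4 libraries limit what could be seen.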
